A study of Mus musculus with 12 samples.

Results

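The regions described here are internal exons of genes that are cut into many parts. In the authors' table of exon parts, each row is an exon part, an exon or a piece of one, and the class column is written NA for parts that the file header calls unclassified or internal constitutive. All such parts at least 28 bp and under 1 kb wide were taken from genes with 60 or more rows in the table, and gene names that join several genes with a plus sign were left out. This gave 2924 exons of 46 genes, or 2.11% of the 138745 parts in the table. A gene name contributed between 41 and 116 exons (median 59.5). The highest count, 116, is that of the unit named Ubr4, which also holds rows that match a neighbouring gene. The exons had a median width of 129 bp (quartiles 97 and 174 bp).

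The RNA came from embryonic stem cells of the mouse line V6.5 (background C57Bl/6-129), grown with LIF, in which both copies of Cdk13 had been knocked out and a Flag- and HA-tagged Cdk13 transgene was kept on by doxycycline. The study made 4 libraries 48 h after doxycycline was withdrawn, 4 after 72 h, and 4 from cells kept in doxycycline, with 2 libraries from each of 2 independently derived clones (11-8 and 14-1) in every group. All 12 libraries therefore carried the knockout and the transgene, and loss of Cdk13 cannot be told apart from removal of the drug, since cells without the transgene are not part of the design. RNA integrity numbers lay between 8.9 and 9.3. The table holds 1 log2 fold change and 1 adjusted p per part and time, cells without over cells with doxycycline, so values per library, their spread and their depth are not used here.

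CDK13 pairs with cyclin K and adds phosphate to the tail of RNA polymerase II, which couples transcription elongation to splicing and 3′ end formation. Genes with very many exons are mostly long genes that code for giant proteins such as motors, ubiquitin ligases, matrix proteins and ribosome assembly factors. A polymerase has to travel far to complete their RNA, and their many exons give many points at which the use of the 5′ and 3′ ends of the same RNA can be compared. DEXSeq, the tool named in the file header, sets each part against the rest of its gene, so a value is a shift in relative use, whatever happens to the total RNA of the gene. A higher share of some exons lowers the share of the others in the same gene, and opposite signs within a gene are therefore not independent of each other.

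The exons could be placed in known transcripts. By gene symbol and by the order of exon widths, 2560 of the 2924 exons (87.6%) matched an exon of a GENCODE M21 transcript, and 2545 of these lay within the coding sequence. All 46 genes had a match, 3 of them under a newer symbol (Mll3 is Kmt2c, Spna2 is Sptan1 and Gm15800 is Hectd4). Only 6 of the exons were the first or last row of their gene, and 41 (1.40%) touched another row, as pieces of a split exon do. The label therefore held for most of the set. It did not hold for the start of the unit named Ubr4, the one case found by comparing exon widths with those of nearby genes on the same strand: 19 of its exons between rows 2 and 23 matched Emc1, which codes for a subunit of the endoplasmic reticulum membrane complex and lies next to Ubr4 on the same strand. The 26 rows ahead of the first row that matched Ubr4 (21 of the exons) are described separately from Ubr4 below. Other kinds of joined units were not searched for, and in one the sides and the 5′ minus 3′ difference would not refer to a single gene.

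Sequences are shown for 1 higher and 1 lower exon of each of 4 genes that had both, because these pairs carry the main pattern, a rise toward the 5′ end and a fall toward the 3′ end of the same gene. For each direction the exon of lowest adjusted p at 72 h was taken among coding exons whose width occurred once in the gene. Coordinates are those of the deposited table on mm9, and the sequences are those of the exon of the same width and neighbours in the GENCODE M21 transcript, written 5′ to 3′ on the transcribed strand. Capitals mark the last 3 bases, the exonic side of the 5′ splice site. In Dync1h1, the heavy chain of the dynein motor, E034 (chr12:111874105-111874288, plus strand) is exon 31 of 77 and codes for residues 2072 to 2133 of 4644, and E074 (chr12:111899034-111899194) is exon 65 and codes for residues 3979 to 4032. In Mdn1, the giant ATPase midasin that remodels pre-60S ribosomes, E007 (chr4:32756438-32756569, plus strand) is exon 7 of 102 and E134 (chr4:32855628-32855802) is exon 97. In Dnajc13, an endosomal J-domain protein, E060 (chr9:104131011-104131090, minus strand) is exon 11 of 56 and E023 (chr9:104081132-104081299) is exon 41. In Tln1, talin 1, which links integrins to actin, E073 (chr4:43568474-43568626, minus strand) is exon 5 of 57 and E026 (chr4:43551062-43551211) is exon 41. In each pair below, the exon that rose is given first and the exon that fell second.
Dync1h1 E034: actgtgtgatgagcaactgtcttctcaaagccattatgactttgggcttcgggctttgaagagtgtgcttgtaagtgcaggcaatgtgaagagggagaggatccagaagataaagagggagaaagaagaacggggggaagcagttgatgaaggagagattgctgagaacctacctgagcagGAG
Dync1h1 E074: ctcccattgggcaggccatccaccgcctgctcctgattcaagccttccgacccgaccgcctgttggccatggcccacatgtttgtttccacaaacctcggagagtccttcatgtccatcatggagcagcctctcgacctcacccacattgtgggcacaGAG
Mdn1 E007: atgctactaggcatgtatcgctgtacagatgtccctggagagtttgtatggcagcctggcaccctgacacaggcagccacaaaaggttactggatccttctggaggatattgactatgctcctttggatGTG
Mdn1 E134: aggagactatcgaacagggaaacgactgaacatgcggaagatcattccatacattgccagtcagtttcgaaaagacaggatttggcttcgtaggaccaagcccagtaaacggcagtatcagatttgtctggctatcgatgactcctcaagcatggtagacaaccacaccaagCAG
Dnajc13 E060: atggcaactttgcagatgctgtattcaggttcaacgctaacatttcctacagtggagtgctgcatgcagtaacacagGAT
Dnajc13 E023: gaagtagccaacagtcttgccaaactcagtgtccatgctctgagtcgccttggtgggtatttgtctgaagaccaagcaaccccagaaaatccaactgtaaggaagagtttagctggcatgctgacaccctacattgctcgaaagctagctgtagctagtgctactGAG
Tln1 E073: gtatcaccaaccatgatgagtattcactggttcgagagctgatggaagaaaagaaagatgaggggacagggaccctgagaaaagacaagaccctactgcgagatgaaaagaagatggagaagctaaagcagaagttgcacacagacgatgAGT
Tln1 E026: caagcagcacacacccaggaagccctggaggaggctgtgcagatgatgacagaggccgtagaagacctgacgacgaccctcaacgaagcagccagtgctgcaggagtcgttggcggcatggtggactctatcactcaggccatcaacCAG

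After 72 h without doxycycline, the exons that rose lay toward the 5′ end of these genes and the exons that fell lay toward the 3′ end. Of 2428 exons tested (83.0% of the set), 57 in 16 genes were higher and 31 in 14 genes were lower at the authors' DEXSeq adjusted p below 0.05, which is taken as a call throughout. Calls thus made up 3.62% of the tested exons, beside 3.6% of all tested parts. The shares by direction, 2.35% higher and 1.28% lower, stood beside 2.33% higher and 1.28% lower among all 105545 tested parts of the series, so the number of calls is near the background. Called changes were small, with a median log2 fold change of 0.17 (range 0.059 to 0.45) for the higher exons and -0.13 (range -0.46 to -0.072) for the lower ones in the authors' deposited table. The 20 called exons not tested at 48 h had a median size, whatever the sign, of 0.28. It was 0.14 for the 68 tested at both times. The p-values set a change against the spread among 4 libraries per group, 2 from each of 2 clones. Whether clone entered the fit is not given, so it is not known how far they reflect the spread between clones. In RNA from whole cultures, a change of exon use within cells and a change in the mix of cells cannot be told apart.

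Of the 57 higher exons, 51 (89.5%) lay on the 5′ side of the middle row of their gene, and all 31 lower exons lay on the 3′ side. Without the rows ahead of Ubr4, 56 exons were higher and 91.1% of them lay on the 5′ side. The median higher exon stood 19.9% of the way along its gene's rows, counted from the 5′ end, and the median lower exon 94.4% of the way. In 10 genes both directions were called, and in all 10 of them every higher exon lay 5′ of every lower exon. These genes were Dync1h1, Ubr4, Hspg2, Huwe1, Mdn1, Macf1, Dnajc13, Tln1, Lrp1 and Mll3. Another 6 genes had higher exons only and 4 had lower exons only. Since the values are relative, a fall at one end of a gene comes with higher values elsewhere in it, but which end falls is not fixed by this. With the sides set by the genomic midpoint of the gene instead of its middle row, 70.2% of the higher exons lay on the 5′ side.

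**Figure D1:**
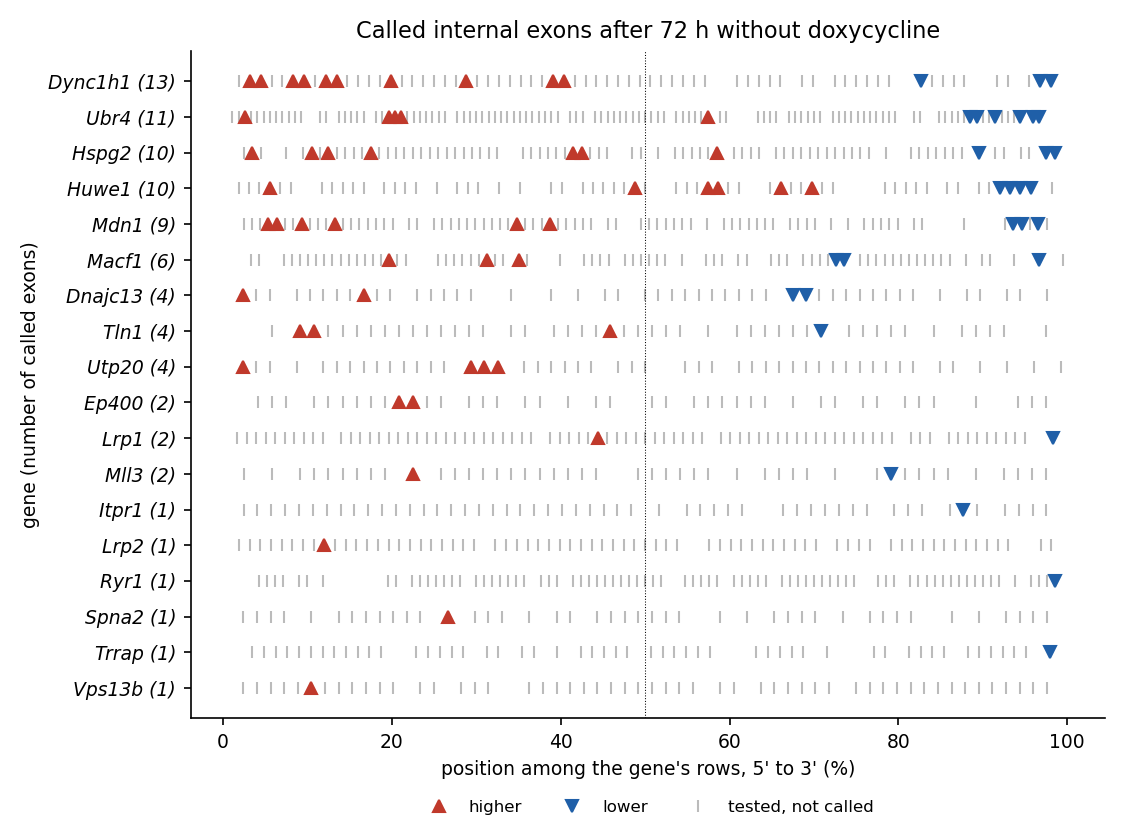
Each line is 1 of 18 genes with a called exon at 72 h, and the x axis gives the position among the gene's rows in percent from 5′ to 3′. Red triangles are higher exons, blue triangles lower exons and grey ticks tested exons with no call; the numbers beside the genes count called exons. In all 10 genes with both colours, red lies left of blue.

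The same order was seen over all valued exons, called or not. With the rows of each gene split into 10 equal bins, the first bin had a median log2 fold change of 0.12 at 72 h over 192 exons in the authors' deposited table, and 82.3% of these values were above 0. The median was 0.068 in the fifth bin (247 exons), 0.0035 in the seventh (248 exons) and -0.082 in the last (223 exons), where 16.6% of values were above 0. At 48 h the median was 0.072 in the first bin (32 exons), 0.038 in the fifth (85 exons) and -0.053 in the last (88 exons). The 4 libraries in doxycycline served both times, so the times are only set side by side.

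**Figure D2:**
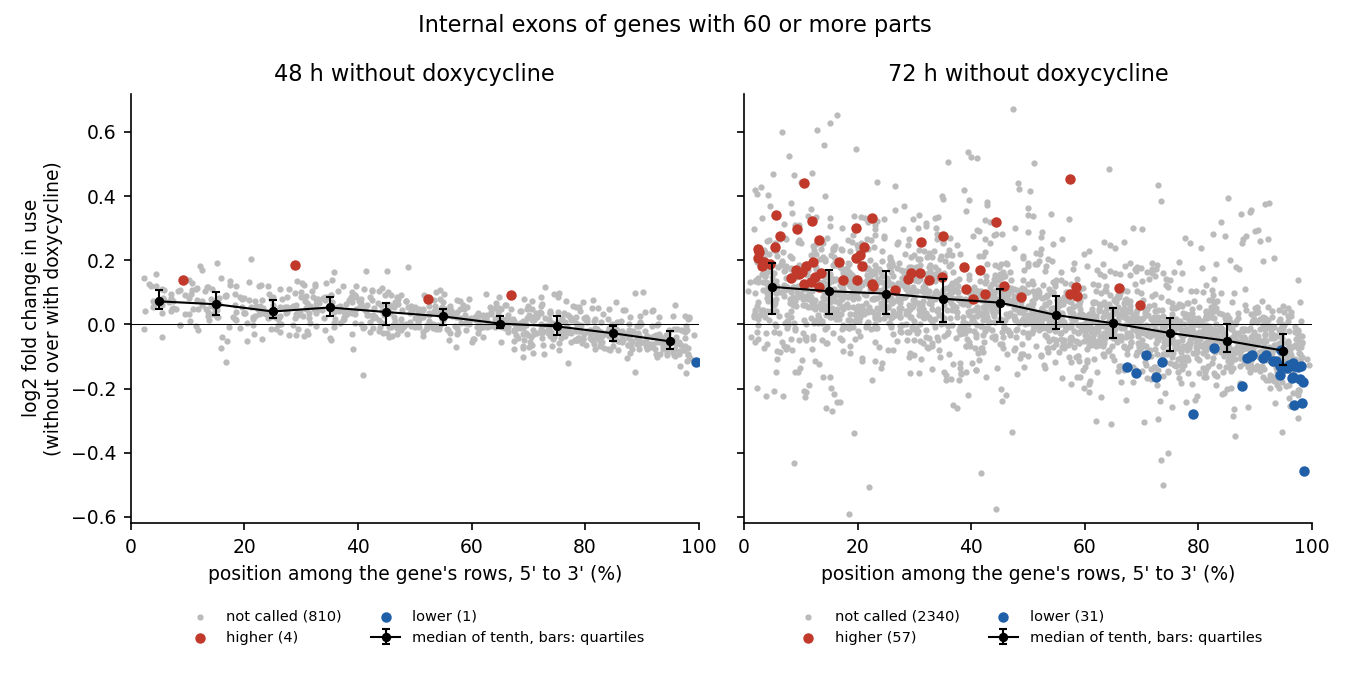
The x axis is the position of an exon among its gene's rows in percent, the y axis the authors' log2 fold change in use, at 48 h on the left and 72 h on the right. Grey points are tested exons with no call, red and blue points called exons, and black circles medians of 10 bins with quartile bars, which fall from left to right across 0 in both panels; 3 exons at 72 h lie beyond the y axis.

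Distance from the end of the RNA also differed between the called exons. Among called exons placed in a transcript, the 21 lower ones ended 210 to 3051 bases from the transcript's 3′ end, with a median of 1653 bases. The 47 higher ones ended 4715 to 21155 bases from it, with a median of 10080 bases. Another 10 higher and 10 lower exons could not be placed, so the ranges of all called exons may overlap. Tested exons with no call that could be placed (2112 exons) ended 104 to 23042 bases from the 3′ end, with a median of 6238 bases. Within 1000 bases, 6 of 60 placed exons with a value were lower and 0 higher. Beyond 10000 bases, 24 of 529 were higher and 0 lower. Over all placed exons with a value at 72 h, the median log2 fold change was -0.091 within 1000 bases of the 3′ end (60 exons of 17 genes) and -0.070 at 1000 to 2000 bases (175 exons). It was -0.026 at 2000 to 4000 bases, 0.013 at 4000 to 6000 bases, 0.044 at 6000 to 8000 bases, 0.078 at 8000 to 10000 bases and 0.12 beyond 10000 bases (529 exons of 26 genes). The far bins hold longer transcripts only, and the transcript used for each gene was the one that placed most of its exons.

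Genes were also compared one by one, by splitting the valued exons of a gene, in order, into 3 runs of equal size and setting the median of the 5′-most run against that of the 3′-most run. At 72 h, 44 genes had the 9 values required, and in 38 of them (86.4%) the 5′ median was the higher one. The difference had a median of 0.15 on the log2 scale and ranged from -0.36 in Col7a1 to 0.29 in 4932438A13Rik. Of the 24 genes with no called exon, 18 had the higher median at the 5′ end, with a median difference of 0.12, against 0.15 over the 20 genes with a called exon. At 48 h, 19 genes had enough values and 18 of them (94.7%) had the higher median at the 5′ end, with a median difference of 0.084. The exception at 48 h was Lrp2, at -0.012 in the 5′ and 0.022 in the 3′ exons.

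**Figure D3:**
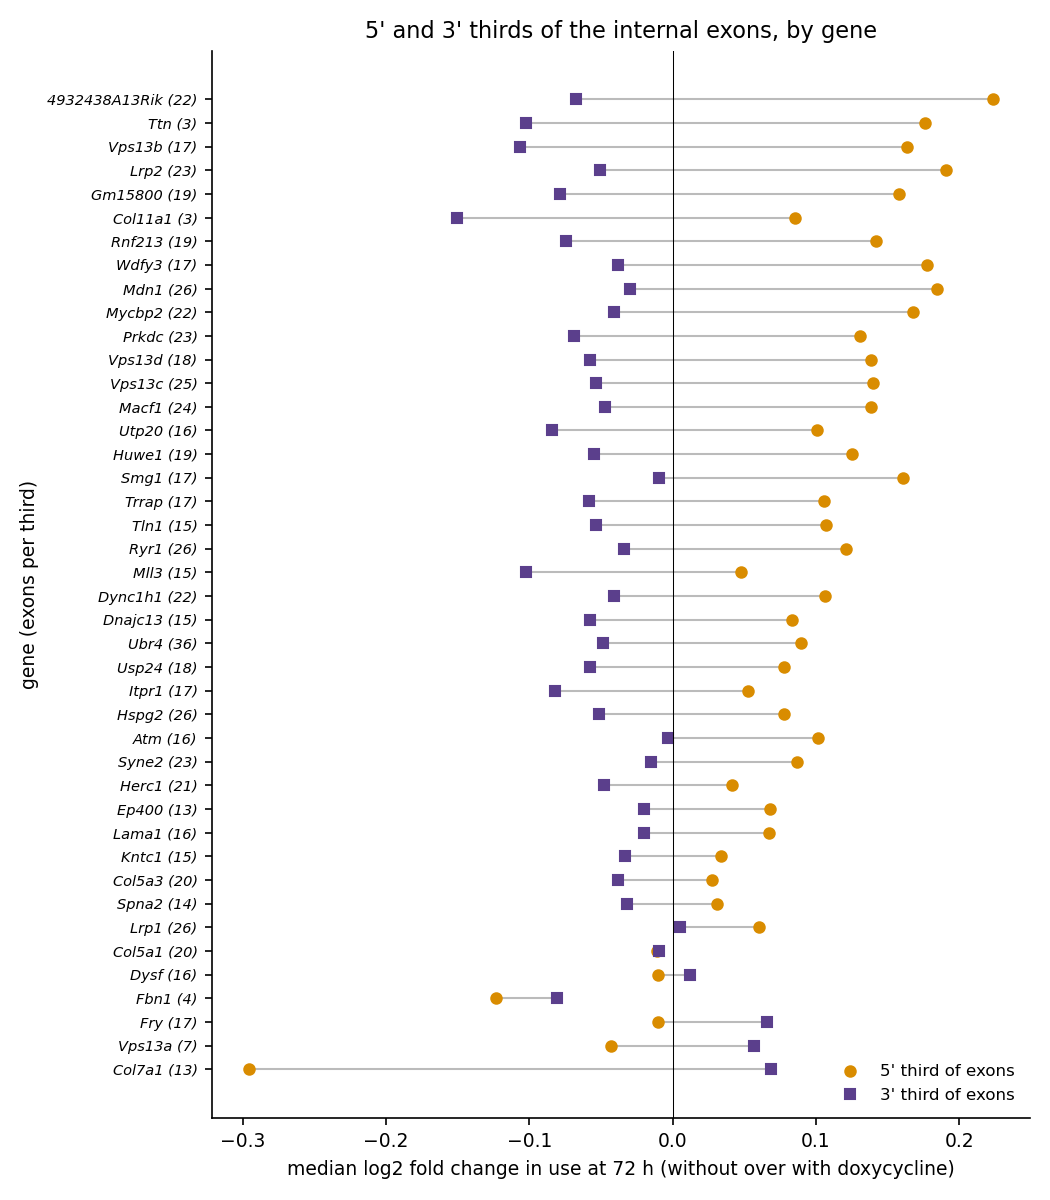
Each line is 1 of 42 genes, with the number of exons per run in brackets, and the x axis is the median log2 fold change in use at 72 h. Orange circles are the 5′-most and purple squares the 3′-most of 3 equal runs of exons; circles lie right of squares in 36 genes, and Col7a1, Vps13a, Fry, Fbn1, Dysf and Col5a1 at the bottom are the others.

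Genes of cytoskeletal linkers and motors had 17 higher and 7 lower exons of 308 tested at 72 h (7.79%). Of all tested parts of the series, 3.6% were called. The share of a list can rest on 1 or 2 genes, whose exons are not independent of each other. Dync1h1 had the most called exons of the set, 10 higher and 3 lower of 67 tested. Its exons E003, E004, E007, E009, E013, E014, E019, E026, E034 and E035, all within the first 32 of its 78 rows, rose by 0.080 to 0.20 in the authors' deposited table. E034 rose by 0.11 (adjusted p = 0.0004), and E074, E088 and E089 nearer the 3′ end were lower at -0.072, -0.13 and -0.13 in the authors' deposited table. Between rows 33 and 64 of Dync1h1 no exon was called. Macf1, the gene of a linker between actin and microtubules, had higher exons at E106 (0.30), E091 (0.26) and E086 (0.28) and lower exons at E038 (-0.16), E037 (-0.12) and E009 (-0.12) in the authors' deposited table. E009 touches another row. Between the higher and the lower exons lies E062, an alternative first exon outside the set, which was higher (0.41, adjusted p = 1.1e-11 in the authors' deposited table). Whether the higher and lower exons lie on the same RNA was not tested.

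Tln1 followed the same order. E074 (0.17), E073 (0.18, adjusted p = 6.0e-05) and E043 (0.12) rose and E026 (-0.095) fell, in the authors' deposited table. Spna2, alpha spectrin, had 1 higher exon, E022, at 0.11 (adjusted p = 0.0325, from the authors' deposited table). Syne2, the gene of the nuclear envelope protein nesprin-2, had none called of 69 tested. The sarcomere genes Ttn and Neb are muscle genes, and 10 of the 63 Ttn exons and none of the 46 Neb exons were tested.

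Genes of giant ubiquitin ligases and of a deubiquitinase had 15 higher and 10 lower exons of 507 tested at 72 h (4.93%). That stood beside 3.6% of all tested parts, and the calls lay in 3 of the 8 genes, Ubr4 and Huwe1 among them. In Huwe1, a HECT ligase on the X chromosome, E006 (0.34), E048 (0.084), E057 (0.094), E058 (0.087), E067 (0.11) and E070 (0.059) rose in the authors' deposited table. Its neighbouring exons E128 (-0.095), E129 (-0.11, adjusted p = 0.00020), E130 (-0.16) and E131 (-0.14) fell together, in the authors' deposited table. These 4 exons are numbers 78 to 81 of 83 in the transcript, and E131 touches another row.

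The unit named Ubr4 had 5 higher and 6 lower exons of 110 tested. Ubr4 is an E3 ligase of the N-degron pathway. In Ubr4 proper, E029 (0.21), E030 (0.21), E031 (0.24, adjusted p = 0.00072) and E084 (0.45) rose in the authors' deposited table, and E142, E143, E146, E151, E153 and E154 were lower, between -0.098 and -0.16. E151 and E154 touch another row. Exons E029 to E031 are numbers 2 to 4 of 106 in the Ubr4 transcript. The fifth higher exon of the unit, E004 (0.23, adjusted p = 0.0053 in the authors' deposited table), lies among the rows that match Emc1. In those rows the 5′-most run had a median of 0.13 and the 3′-most run 0.023, and from the first Ubr4 row on the medians were 0.12 and -0.064. The values along the unit thus came down once over the Emc1 rows and again over the Ubr4 rows.

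In Herc1, Mycbp2, Gm15800 (Hectd4), Rnf213 and Usp24, no exon was called of 65, 66, 57, 57 and 56 tested. The 5′ minus 3′ difference at 72 h was 0.089 in Herc1, 0.21 in Mycbp2, 0.24 in Gm15800, 0.22 in Rnf213 and 0.14 in Usp24, computed from the authors' deposited table.

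**Figure D4:**
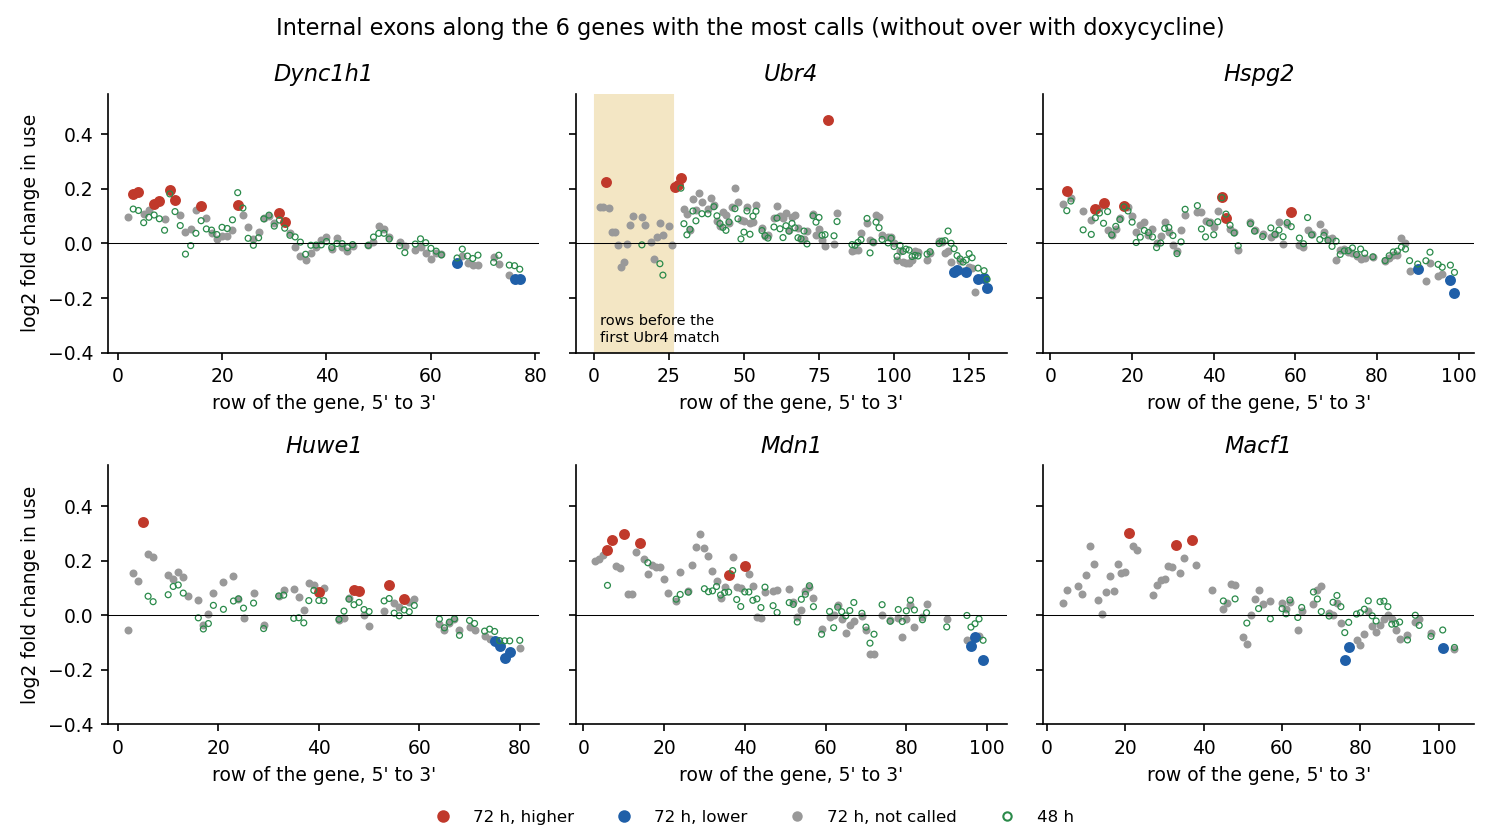
Log2 fold change in use (y axis) against the row of the gene from 5′ to 3′ (x axis) for the 6 genes with the most called exons. Red and blue are exons higher and lower at 72 h, grey exons not called at 72 h and green open circles the 48 h values; the shaded rows of Ubr4 are those ahead of its first matching exon, and 1 Mdn1 exon at -1.60 lies below the axis. Higher exons lie to the left of lower exons in each panel.

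The 2 genes of ribosome assembly, Mdn1 and Utp20, had 10 higher and 3 lower exons of 127 tested at 72 h (10.2%). Of all tested parts, 3.6% were called. In Mdn1, E006 (0.24), E007 (0.28), E010 (0.30), E015 (0.26, adjusted p = 0.0011), E038 (0.15) and E042 (0.18) rose, and E133 (-0.11), E134 (-0.081) and E137 (-0.17) fell, in the authors' deposited table. Mdn1 also held the lowest value of the whole set, E138 at -1.60, which was not called (adjusted p = 0.26 in the authors' deposited table). Utp20, a component of the small-subunit processome, had 4 higher exons, E081 (0.21), E062 (0.16), E061 (0.16) and E060 (0.14) in the authors' deposited table, the last 3 of them neighbours.

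Genes of the extracellular matrix had 7 higher and 3 lower exons of 314 tested (3.18%, beside 3.6% of all tested parts). All 10 calls were in Hspg2, the gene of the basement membrane proteoglycan perlecan. Its exons E004 (0.19), E013 (0.13), E015 (0.15), E023 (0.14), E047 (0.17), E048 (0.095) and E074 (0.12) rose in the authors' deposited table. E115 (-0.094), E125 (-0.13) and E127 (-0.18) fell, and E127 had the lowest adjusted p of the set, 4.8e-16 in the authors' deposited table. Lama1, laminin alpha 1, had none called of 49 tested, with a 5′ minus 3′ difference of 0.088. The collagen genes Col5a1, Col5a3, Col7a1 and Col11a1 had none called of 60, 60, 41 and 11 tested, and Fbn1 and Fbn2, the fibrillins of elastic microfibrils, had 12 and 2 tested.

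Collagen exons had widths of their own. Collagen helices carry a glycine in each triplet of residues, and 211 of the 295 collagen exons (71.5%) had a width that is a multiple of 9 bp, against 15.5% of the 2629 other exons. A width of exactly 54 bp was found in 92 collagen exons. The 5′ minus 3′ difference of Col5a1 was -0.00082, while Col7a1 ran opposite to most genes, at -0.30 in the 5′-most and 0.069 in the 3′-most 13 of its valued exons, with no exon called.

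In genes of membrane traffic and lipoprotein receptors, 3 exons were higher and 1 lower of 411 tested (0.973%, beside 3.6% of all tested parts). Lrp1, an endocytic receptor, had E057 higher at 0.32 and E003 lower at -0.24 (adjusted p = 0.00051), and Lrp2, megalin, had E076 higher at 0.32, in the authors' deposited table. At 48 h the authors' deposited table gives E003 of Lrp1 as 0.021 (adjusted p = 0.564). In Vps13b, one of the 4 Vps13 genes here, which code for bridge-like lipid transfer proteins, E008 rose by 0.44 (adjusted p = 0.039) in the authors' deposited table. Vps13a, Vps13c, Vps13d and Wdfy3, the gene of an autophagy scaffold, had no call of 23, 77, 56 and 52 tested. The 5′ minus 3′ difference was 0.27 in Vps13b, 0.19 in Vps13c, 0.20 in Vps13d and 0.22 in Wdfy3, but -0.10 in Vps13a.

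The remaining lists held few genes. The chromatin genes had 3 higher and 1 lower exon of 86 tested (4.65%, beside 3.6% of all tested parts). Ep400, a remodelling ATPase, had E056 (0.18) and E055 (0.13) higher, and Mll3, a histone H3K4 methyltransferase, had E052 higher (0.33) and E014 lower (-0.28), in the authors' deposited table. The kinase list had 1 lower exon of 223 tested (0.448%, beside 3.6% of all tested parts). It was E097 of Trrap, at -0.17 in the authors' deposited table. Trrap is a kinase-like scaffold of acetyltransferase complexes. Prkdc, the DNA-dependent protein kinase, Smg1, the kinase of nonsense-mediated decay, and Atm had no call of 69, 53 and 49 tested, with 5′ minus 3′ differences of 0.20, 0.17 and 0.10.

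Calcium release channels had 2 lower exons of 130 tested (1.54%, beside 3.6% of all tested parts). They were E063 of Itpr1, the inositol trisphosphate receptor (-0.19), and E002 of Ryr1, the skeletal muscle ryanodine receptor, in the authors' deposited table. The Ryr1 exon, second to last in its transcript, had the largest fall of any call, -0.46 (adjusted p = 0.0024, from the authors' deposited table). Genes in no list had 2 higher and 3 lower exons of 322 tested (1.55%, beside 3.6% of all tested parts). In Dnajc13, E070 (0.24) and E060 (0.20) rose, and E024 (-0.13) and E023 (-0.15) fell, in the authors' deposited table. Fry, Dysf, Kntc1 and 4932438A13Rik had no call of 53, 50, 47 and 67 tested. The genome maintenance list had no gene with 60 or more rows.

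Of the 88 exons called at 72 h, 46 (52.3%) had the adjacent exon of the set called in the same direction, and none had an adjacent exon called in the opposite one. The same share was not computed for other genes, and calls gathered in few genes and near gene ends. The 5 genes with the most calls, Dync1h1, Ubr4, Hspg2, Huwe1 and Mdn1, held 53 of the 88 (60.2%). Calls at 72 h were 68 of the 815 exons that had also been tested at 48 h (8.34%) and 20 of the 1613 that had not (1.24%). The part of sequencing depth in this difference was not tested.

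After 48 h without doxycycline only 5 exons were called, of 815 tested (0.613%), beside 1.62% of all tested parts. E026 of Dync1h1 (0.19, adjusted p = 0.016), E074 of Tln1 (0.14, adjusted p = 0.043), E107 of Ubr4 (0.092, adjusted p = 0.048) and E044 of Spna2 (0.078, adjusted p = 0.023) were higher, 0.491% of tested exons beside 0.964% of all parts, in the authors' deposited table. The lower one was E006 of Macf1 (-0.12, adjusted p = 0.029 in the authors' deposited table), 0.123% of tested exons beside 0.633% of all parts. E006 is the last row of Macf1 and touches another row, so it is not an internal exon by position. Of the 4 higher exons, only 2, E026 of Dync1h1 and E074 of Tln1, lay on the 5′ side of the middle row. E107 of Ubr4 and E044 of Spna2 lay on the 3′ side, as did the lower exon, E006 of Macf1. All 5 had the same sign at 72 h, and 2, E026 of Dync1h1 (0.14) and E074 of Tln1 (0.17), were called there too in the authors' deposited table. Of the 88 exons called at 72 h, 68 had a value at 48 h, and the median size of their log2 fold change, whatever its sign, was 0.14 at 72 h and 0.086 at 48 h. The exons were chosen here for their 72 h call, and both comparisons share their control libraries.

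The rule did not use reading frame or base composition. The median width was 132 bp for higher exons, 165 bp for lower exons and 132 bp for tested exons with no call. A width divisible by 3, which keeps the reading frame when an exon is skipped, was found in 47.4% of higher, 38.7% of lower and 46.1% of uncalled tested exons. Among exons placed in a transcript, the median GC content was 50.2% in higher, 48.8% in lower and 50.7% in uncalled tested exons, with 82.5%, 67.7% and 90.3% of each group placed. For lower exons that is too few for the GC value to be read. The letters AG, the usual last 2 bases before a 5′ splice site, ended 26 of 47 higher exons (55.3%) and 15 of 21 lower exons (71.4%). They ended 60.4% of placed exons tested with no call and 58.4% of all placed exons. The shares of called exons are descriptions of few exons.

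Some larger values carried no call. At 72 h, 19 uncalled exons of 9 genes lay 0.5 or more from 0 on the log2 scale in the authors' deposited table, and none of the 19 had an adjusted p at 48 h. They included 7 exons of 4932438A13Rik between 0.52 and 0.65, 4 exons of Col7a1 between -0.84 and -0.51, and E070 of Kntc1, a kinetochore gene, at 1.07 (adjusted p = 0.0567, from the authors' deposited table).

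Other parts of the same 46 genes were called in both directions at 72 h. Among all tested parts of the series, 2.33% were higher and 1.28% lower. The share of each class over the whole series is not given here. Whether the counts below are particular to these genes is therefore not known. Of 34 terminal exons tested, 6 were lower and none higher, with a median log2 fold change of -0.13 in the authors' deposited table. Of 30 first exons tested, 2 were higher and none lower (median 0.15), and of 57 detained introns, which are kept in otherwise spliced RNA, 5 in 4 genes were higher and none lower (median 0.21), in the authors' deposited table. Of 57 cassette exons tested, 1 was higher and 2 were lower (median 0.029), and of 138 unclassified parts outside the width limits, 4 were higher and 2 lower (median -0.0039), in the authors' deposited table. No call was made among 21 alternative 5′ splice site parts and 15 intronic polyadenylation parts, and 1 of 4 alternative 3′ splice site parts and 1 of 2 alternative first exons were higher. The other classes held at most 4 tested parts each and no call. The detained introns E083 and E098 of Hspg2 rose by 0.77 and 1.05, more than any internal exon called in these genes, in the authors' deposited table.

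Across the series, unclassified parts of the same widths had a median 5′ to 3′ difference above 0 in each class of genes from 10 rows up, with larger values in classes with more rows. It was not computed for the 6299 genes with 2 to 9 rows, which hold too few exons. At 72 h the median difference was 0.15 in the genes with 60 or more rows (44 genes), 0.10 with 40 to 59 rows (128 genes), 0.066 with 30 to 39 rows (276 genes), 0.048 with 20 to 29 rows (1030 genes) and 0.036 with 10 to 19 rows (1350 genes). The share of genes with the higher median at the 5′ end was 86.4%, 84.4%, 80.8%, 74.8% and 67.3% in the same order. At 48 h the median difference was 0.084 in the genes with 60 or more rows (19 genes) and 0.024 with 10 to 19 rows (378 genes). Lower calls made up 1.28% of tested exons in the genes with 60 or more rows and 0.624% of the other unclassified parts of these widths, and higher calls 2.35% and 1.69%. No test of these differences was made, since exons of 1 gene share its total, and the number of values behind each median grows with the number of rows. Around the limits of the rule, the 7 genes with 60 or 61 rows had 6 higher and 3 lower exons of 236 tested at 72 h. Dock9, Gcn1l1 and Itpr3, with 58 or 59 rows, had 3 higher and 1 lower of 127. Of all tested parts, 3.6% were called at 72 h, and such small counts are not read as a difference from that share. No call was made among the 5 tested exons 28 to 30 bp wide or the 3 tested parts 25 to 27 bp wide, too few to be set against it.

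**Figure D5:**
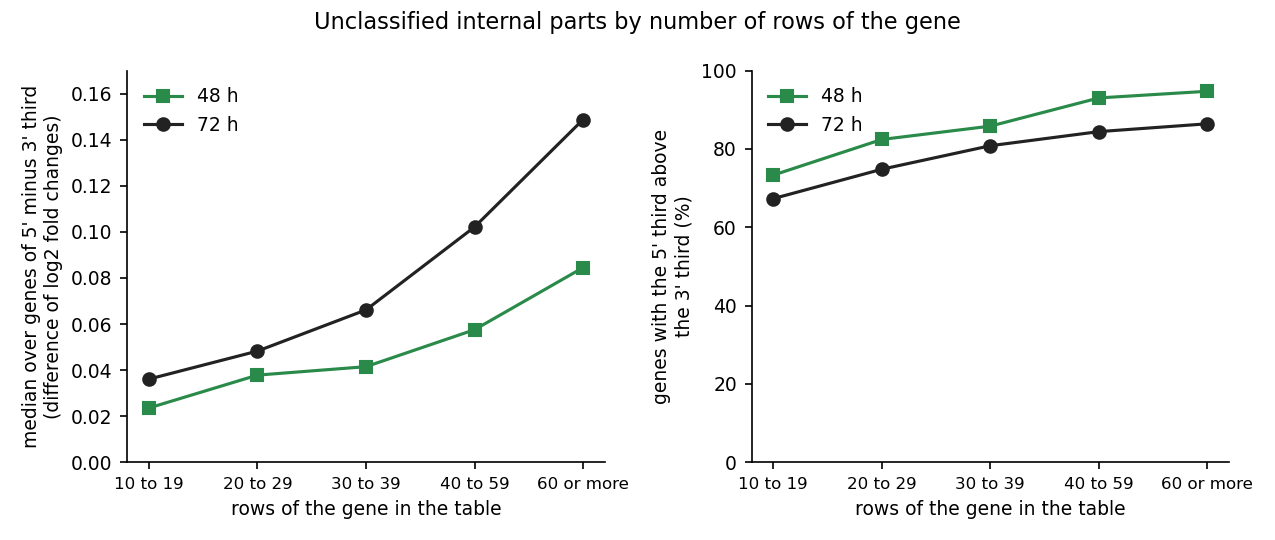
Unclassified parts from 28 bp to under 1 kb wide, by the number of rows of their gene (x axis), at 48 h (green squares) and 72 h (black circles). The left y axis is the median over genes of the 5′-most minus the 3′-most of 3 equal runs and the right y axis the share of genes above 0; both are highest in genes with 60 or more rows, at 0.084 and 94.7% at 48 h and 0.15 and 86.4% at 72 h.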

How the data were processed

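Polyadenylated RNA of 12 libraries was compared by the authors, per the labels. The authors used DEXSeq on exon parts, per the file headers; the submitters' processing notes name STAR 2.4.1d and mm9. The deposited p-value is FDR-adjusted and the deposited log2 fold change is cells without over cells with Cdk13, per the file headers; how reads were counted, against which annotation, and whether clone entered the fit is not given in the sources used here. In all 277490 entries of the table, the deposited flag of significance matched an adjusted p below 0.05.

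No test was added. Parts were ordered 5′ to 3′ by strand. Sides and the 10 bins use this order over all rows of a gene, and the 3 runs use its valued exons, at least 9. Exons were matched to GENCODE M21 by symbol and by runs of widths, with no coordinates carried between builds. Python 3.11.15, pandas 2.3.3 and numpy 2.4.6 were used. The counting of calls and of genes with the higher 5′ median was tested on simulated data, and the counting of sides was not. The set and the gene lists were chosen with earlier results of these data known. Named genes were, per time, the 8 largest rises and 8 largest falls (from each gene the exon of smallest adjusted p), the 6 genes with most calls, genes with at least 2 calls each way, up to 4 genes per list and the 3 genes with most exons; most other called exons are given as well. Of the genes counted, 2 are not reported by name or drawn by gene here. Each of 2 clones was sampled in biological duplicate, per the series design. Depth is unknown.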

Additional observations from a re-analysis of the deposited data

How the results depend on the processing

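With no values per library, leaving out a replicate could not be computed. No paired analysis was possible because the table holds 1 value per part and time for all replicates together. Of 73 alternatives over the 10 counts and shares reported, 56 stayed within 1.5 times the count or within the 95% exact binomial interval of the share. Some of these could hardly move. Every exon tested at 48 h was also tested at 72 h, so keeping exons tested at both times left the 48 h results unchanged. The side shares at 48 h rest on 4 higher exons and 1 lower exon, so their intervals are wide. At an adjusted p below 0.01, 27 exons were higher and 15 lower at 72 h, and 0 and 0 at 48 h. The 5 genes with the most calls were picked at each time, and without them 23 exons were higher and 12 lower at 72 h. At 48 h only 5 genes held a call, so leaving them out had to give 0 and 0. In genes with 80 or more rows, 28 were higher at 72 h and 1 at 48 h, and that 1 lay on the 3′ side (0% on the 5′ side). Counting only changes of 0.1 or more on the log2 scale, 2 were higher at 48 h. The lower exon at 48 h was lost (0) without first or last rows, and also (0) without exons that touch another row, an alternative chosen after seeing the data. With sides set by the genomic midpoint, 70.2% of higher exons at 72 h lay on the 5′ side, against 89.5% by rows. At 48 h the share of genes with the higher 5′ median was 100% with at least 30 values per gene and 100% in genes with 80 or more rows, against 94.7%. Leaving out the rows ahead of Ubr4, also chosen after seeing the data, gave 56 higher and 31 lower exons at 72 h, 91.1% and 100% of them on their side. Beyond the fewer genes or exons each choice leaves, the cause was not tested.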
